A study of Mus musculus with 6 samples.

Results

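The interferon regulatory factor (IRF) genes considered here were Irf1, Irf2, Irf3, Irf4, Irf5, Irf7, Irf8 and Irf9, 8 of the 21757 protein-coding genes annotated in GENCODE M39. Their accessible chromatin in mouse kidney was read from one assay for transposase-accessible chromatin with sequencing (ATAC-seq) peak list. A peak was counted as a distinct interval and was taken for a member when it overlapped the stretch from 3 kb upstream of the gene start to the gene end on the gene's own strand. This gave 84 intervals of 279569 in all. Each interval carried the values of its highest summit, namely the fold enrichment (reads at the summit over the background, a linear ratio) and the -log10 q.

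The libraries mapped here came from nuclei of the kidney cortex of 3 WT and 3 Acly cKO mice. Acly cKO mice carried Acly fl/fl with Ksp-Cre, a Cre driven by Cdh16 sequence that recombines broadly in tubular epithelium. The study's methods name littermate Acly fl/fl mice without Cre as controls, in which case both groups carried the floxed allele. The labels of the control libraries say only WT, and they give the treatment of all 6 libraries as Control. The methods give an age for mice of the injury experiments without saying whether it covers these mice. The deposited peak call is by its name one call over pooled libraries, with no value for any single library. The study also used WT libraries from an earlier deposit, which are not analysed here, and whether they entered the pool is not stated, so the mix of genotypes behind each value is not known. The accessibility of WT and Acly cKO kidneys was therefore not compared, no value has a replicate error, library depth is unknown, and the genotypes of the libraries mapped here (WT in batches 1 and 2, Acly cKO in batches 4 and 5) cannot be told apart from their batches. At Acly itself the pooled start interval had a fold enrichment of 50.2, which does not check the labels because the genotypes were pooled.

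IRF proteins bind DNA through a conserved tryptophan-rich domain that recognises repeats of GAAA, the core of the interferon-stimulated response element (ISRE). IRF3 and IRF7 are phosphorylated after viral nucleic acid is sensed and switch on type I interferon genes. IRF9 is the DNA-binding part of the complex that carries the type I interferon signal to ISREs, while IRF1 is induced by interferon gamma through gamma-activated sequences (GAS), and IRF2 occupies the same elements as IRF1 and can oppose it. IRF4 and IRF8 act mainly in lymphoid and myeloid cells, often with the ETS factor PU.1 at composite ETS-IRF elements, and IRF5 acts downstream of Toll-like receptors in macrophages and dendritic cells.

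The sequences below were chosen because they lay under the start intervals of members with an ISRE or GAS match (Irf1, Irf2, Irf8 and Irf9), of a member with neither (Irf7), and at accessible summits away from a start (Irf5 and Irf8). They are the GRCm39 reference read 5′ to 3′ in the direction of the gene, with untranslated regions left out beyond a site of 30 bases. Capitals mark matches to the ISRE (GAAA, any 2 bases, GAAA), the GAS (TTCNNNGAA), the composite ETS-IRF element (GGAA, any 2 bases, GAAA), the κB element or the TATA box (TATAAA).
Irf1, chr11:53660591-53660811, plus strand, bases -250 to -30 from the start, with 1 GAS: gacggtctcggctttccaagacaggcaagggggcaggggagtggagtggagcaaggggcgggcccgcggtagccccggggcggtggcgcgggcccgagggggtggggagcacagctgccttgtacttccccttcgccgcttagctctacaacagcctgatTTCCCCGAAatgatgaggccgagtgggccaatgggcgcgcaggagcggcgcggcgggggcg
Irf2, chr8:47192510-47192749, plus strand, bases -250 to -11, with an overlapping composite element and ISRE followed by a GAS: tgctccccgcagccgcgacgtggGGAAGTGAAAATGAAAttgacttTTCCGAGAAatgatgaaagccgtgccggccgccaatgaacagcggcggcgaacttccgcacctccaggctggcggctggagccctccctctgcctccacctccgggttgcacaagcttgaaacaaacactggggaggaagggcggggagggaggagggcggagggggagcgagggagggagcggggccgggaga
Irf8, chr8:121462847-121463095, plus strand, bases -250 to -2, with 2 GAS matches and a TATA box: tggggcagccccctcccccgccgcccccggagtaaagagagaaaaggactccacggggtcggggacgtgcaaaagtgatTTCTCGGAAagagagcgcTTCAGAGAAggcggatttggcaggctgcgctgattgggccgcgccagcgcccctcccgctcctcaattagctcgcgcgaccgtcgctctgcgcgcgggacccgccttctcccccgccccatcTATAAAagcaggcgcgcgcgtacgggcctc
Irf7, chr7:140846399-140846648, minus strand, bases -250 to -1, with no match to these elements: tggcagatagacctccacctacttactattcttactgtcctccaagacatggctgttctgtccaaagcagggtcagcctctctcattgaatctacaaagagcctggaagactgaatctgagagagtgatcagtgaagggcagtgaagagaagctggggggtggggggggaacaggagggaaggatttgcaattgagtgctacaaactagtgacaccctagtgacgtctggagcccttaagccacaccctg
Irf9, chr14:55841571-55841600, plus strand, a GAS in exon 1 from base 139 after the start: accacgtggtTTCTAGGAAatgcacctccc
Irf5, chr6:29522804-29522903, plus strand, around a summit 3.77 kb upstream of the start, with an ISRE on the reverse strand: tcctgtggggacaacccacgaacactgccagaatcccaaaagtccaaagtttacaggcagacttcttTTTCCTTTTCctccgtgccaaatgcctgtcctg
Irf8, chr8:121474167-121474266, plus strand, around the summit in intron 5, with no match to these elements: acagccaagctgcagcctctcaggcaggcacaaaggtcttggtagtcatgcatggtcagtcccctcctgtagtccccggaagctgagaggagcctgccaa

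All 8 members had an interval within 1 kb of the start of their canonical transcript, and in all 8 its fold enrichment was at least 5. Of the 21757 protein-coding genes, 75.8% had a start interval and 66.2% had one at a fold enrichment of at least 5. The median fold enrichment was 27.8 over the 8 members and 30.1 over the protein-coding starts that had an interval. The median was 19.4 over all protein-coding genes when those without an interval counted as 0. The members ran from a start higher than that of 44.2% of protein-coding genes, at Irf4, to one higher than 82.8%, at Irf2. Among the protein-coding starts that had an interval, these shares were 26.5% and 77.4%.

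The fold enrichments in the peak list matched a count of extended reads plus 1, divided by one constant background of 14.3 extended reads plus 1, which allowed the count behind each summit to be recovered. The 95% intervals given below are exact Poisson limits for that count. They cover counting error only, they hold the background fixed, and the reads are not all independent because both ends of a fragment can cover one summit.

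The gene for IRF2, Irf2 (ENSMUSG00000031627.11, chr8:47192222-47300501, plus strand), had the highest start interval. It spanned chr8:47190999-47196430. Its highest summit lay 109 bp upstream of the canonical start, with a fold enrichment of 50.4 (95% counting interval 46.9 to 54.1) from 769 extended reads. The annotated gene begins before that start, so the summit lies inside the gene span. The -log10 q was 1004. This summit was higher than 98.8% of all intervals, and the interval overlaps the long noncoding RNA gene Gm16675.

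Irf9 (ENSMUSG00000002325.17, chr14:55841028-55847812, plus strand), the DNA-binding part of the type I interferon-activated complex, came next with a fold enrichment of 46.5 (43.2 to 50.1) from 710 extended reads. Its summit lay 116 bp after the canonical start, in the 5′ untranslated part of exon 1. The counting intervals of Irf2 and Irf9 overlapped, and both lay above those of the other 6 members. The start interval of Irf9, chr14:55838112-55842862, also covered the neighbouring gene Rnf31 in part.

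Irf3 (ENSMUSG00000003184.17, chr7:44647033-44652272, plus strand), whose protein is the constitutively present factor of the first interferon response, had a start fold enrichment of 34.6 (31.7 to 37.6) from 527 extended reads, 9 bp upstream of the start. Its interval, chr7:44644085-44648423, held the start of Bcl2l12 as well. The canonical starts of Irf3 and Bcl2l12 lie 2 bp apart and the genes are transcribed away from each other, so this value belongs to both genes and cannot be assigned to either.

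Irf1 (ENSMUSG00000018899.19, chr11:53660812-53669200, plus strand), the interferon gamma-induced activator, had a start fold enrichment of 31.0 (28.2 to 33.9) from 472 extended reads at a summit 64 bp upstream. Its counting interval overlapped that of Irf3 and included the median of protein-coding starts with an interval, 30.1. The interval was the widest of the 8 start intervals at 6845 bp, spanning chr11:53659285-53666129, and the region overlaps the long noncoding RNA gene Gm12216.

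The remaining 4 members had start values below the median of protein-coding starts with an interval. Irf8 (ENSMUSG00000041515.12, chr8:121463096-121485659, plus strand), a factor of monocyte and dendritic cell development, had a fold enrichment of 24.7 (22.3 to 27.3) from 376 extended reads, 65 bp upstream of its start. Irf5 (ENSMUSG00000029771.14, chr6:29526276-29541870, plus strand) had 17.6 (15.6 to 19.8) from 268 extended reads. Its summit lay 409 bp after the canonical start in intron 1, farther from that start than in any other member.

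Irf7 (ENSMUSG00000025498.17, chr7:140842619-140846398, minus strand), an interferon-induced amplifier of type I interferon, had a start fold enrichment of 16.6 (14.7 to 18.8) from 253 extended reads, 25 bp inside the 5′ untranslated part of exon 1. Irf4 (ENSMUSG00000021356.11, chr13:30933209-30950959, plus strand), a factor of plasma cells and activated T cells, had the lowest value of the 8 at 13.5 (11.7 to 15.5) from 205 extended reads, 38 bp upstream of its start. Even so, the start of Irf4 was higher than 91.2% of all intervals and than 26.5% of the protein-coding starts that had an interval. The counting intervals of Irf5 and Irf7 overlapped, as did those of Irf7 and Irf4. They did not overlap between Irf9 and Irf3, Irf1 and Irf8, or Irf8 and Irf5. In 7 of the 8 members the summit lay within 120 bp of the canonical start, and in 5 it lay upstream of it. These distances depend on how the caller shifted the reads, which the study's methods leave unclear as to sign.

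**Figure D1:**
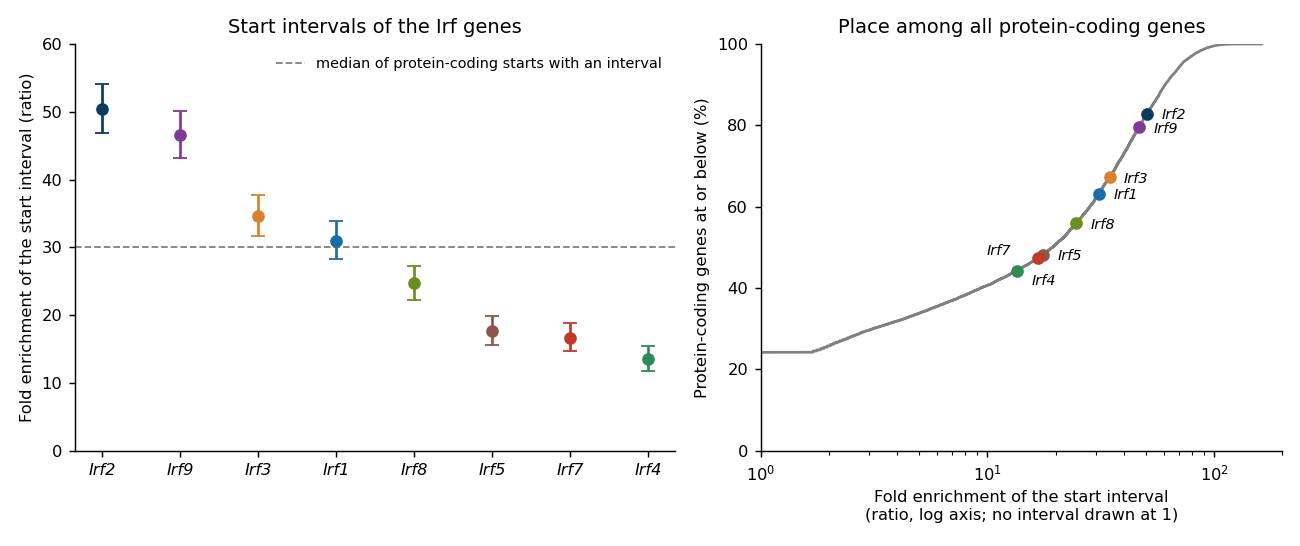
Left, fold enrichment (linear ratio) of the start interval of each Irf gene, with points at the deposited value and bars for the 95% counting interval; the dashed line is the median of protein-coding starts with an interval, 30.1. Right, the same values on the cumulative distribution over 21757 protein-coding genes (log axis, genes without a start interval drawn at 1), where the 8 members run from 44.2% at Irf4 to 82.8% at Irf2.

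Several start intervals held more than one strong summit. The start interval of Irf2 held 13 summits, and beside the main one there were summits in intron 1 of 10.7, 21.7, 27.2 and 14.2 at 0.775, 1.25, 1.48 and 1.95 kb after the start. No other member had as many as 5 summits at a fold enrichment of at least 10 in its start interval. Irf3 had a pair of high summits close together, 30.8 at 263 bp upstream and 34.6 at 9 bp upstream, whose counting intervals overlapped, and a further summit of 21.0 in exon 2.

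Irf1 had a second summit of 21.5 in intron 1, 401 bp after the start, and one of 11.5 in intron 7 at 4.87 kb. Irf8 had flanking summits of 13.9 at 343 bp upstream and 10.9 at 294 bp after the start, about the main one of 24.7. The start interval of Irf7, chr7:140842762-140847072, reached over nearly the whole of this short gene, with summits of 13.1 in intron 1 and 12.2 in exon 4 beside that of 16.6 in exon 1. At Irf9, by contrast, 46.5 was the one summit of 10 that reached 10, and the median of the 10 was 2.68. Irf4 likewise had 1 summit of 5 that reached 10, and its second highest was 6.74 at 1.39 kb inside the gene.

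**Figure D2:**
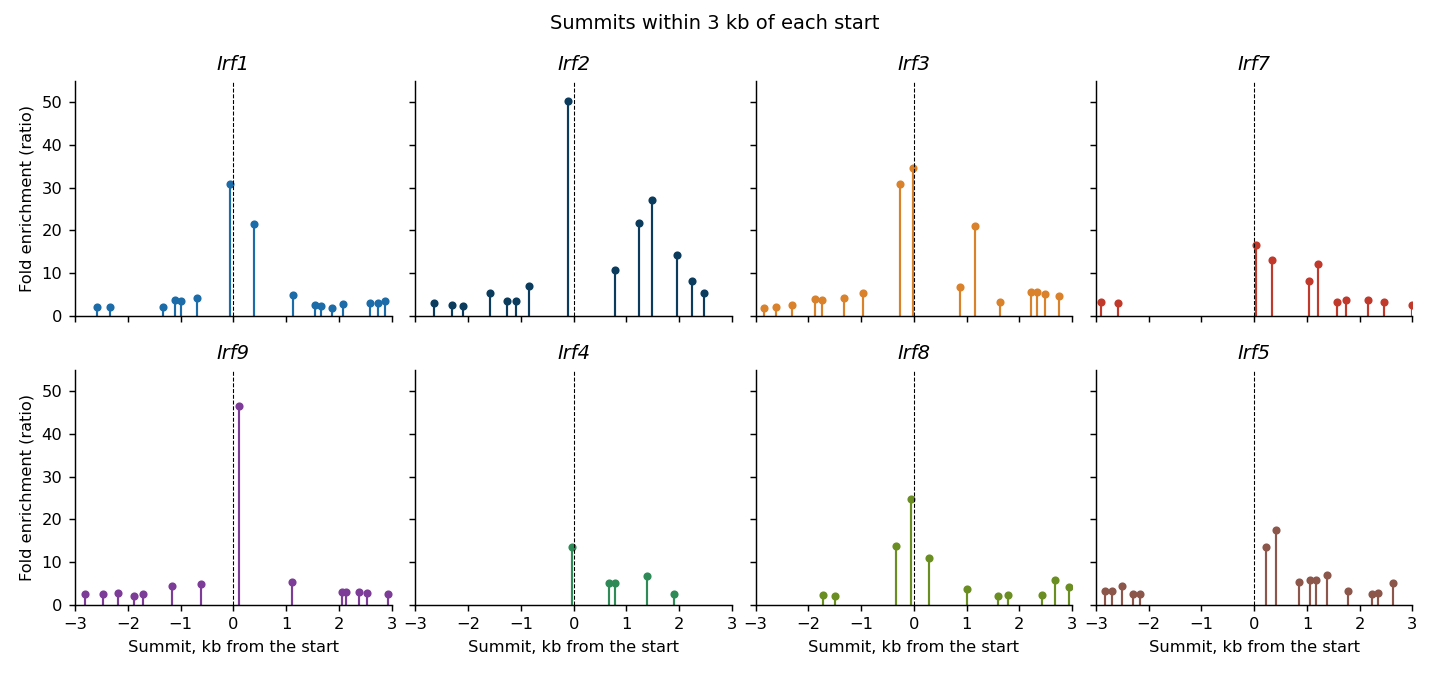
Fold enrichment (linear ratio) of every summit within 3 kb of the canonical start of each Irf gene, by distance in kb along the direction of transcription, with the start as a dashed line at 0. Irf9 shows 1 isolated summit of 46.5, whereas Irf2 has a row of summits up to 27.2 in intron 1 after the main summit of 50.4.

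Away from the starts there were 76 intervals, and most of these were weak. They were narrower than the start intervals and wider than the typical interval of the list. Their median fold enrichment was 2.29 and their median width 680.5 bp, compared with 27.8 and 4325 bp for the 8 start intervals and 2.55 and 434 bp for all intervals of the list. A fold enrichment under 3 was found in 48 of the 76, and 28 held a single summit. Irf2 supplied 52 of the 76 and 39 of the 48, so these pooled values mostly describe Irf2, whose own median was 2.29. In the other members with such intervals the median ran from 2.95 at Irf5 to 11.1 at the 1 interval of Irf3. By the position of the highest summit, 57 of the 76 lay in an intron of the canonical transcript. Of the rest, 8 lay in an exon, 5 upstream of the transcript and 6 downstream of it.

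Of the 76 intervals, 16 had a fold enrichment of at least 5 and 9 had at least 10. They belonged to 5 of the 8 members (Irf2, Irf3, Irf5, Irf8 and Irf9), while 50.7% of protein-coding genes had at least 1 such interval. Irf1, Irf4 and Irf7 had none, but their start intervals reached beyond 1 kb and held summits of at least 5 there. These were 11.5 at 4.87 kb in Irf1, 6.74 at 1.39 kb in Irf4 and 12.2 at 1.22 kb in Irf7, among others. A longer gene offers more room, and the 8 regions ran from 6780 bp at Irf7 to 111280 bp at Irf2.

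Irf2 alone held 53 of the 84 intervals, 4.76 per 10 kb compared with a median of 1.86 per 10 kb over protein-coding genes. Intron 1, which is 53.6 kb long, held 27 of them, 21 with a fold enrichment under 3. The strong intervals were spread along the gene and were highest toward its 3′ end. In intron 1 they were 5.30 at 4.78 kb, 5.83 at 11.7 kb, 10.7 at 41.6 kb and 11.1 at 53.1 kb from the start. Intron 2 had one of 12.1 at 60.2 kb and intron 5 one of 8.45 at 71.8 kb.

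The 2 highest intervals of any member away from a start lay in introns 6 and 7 of Irf2. The first, chr8:47280896-47286140, had a fold enrichment of 23.2 (20.9 to 25.8) at 90.6 kb. The second, chr8:47294540-47300081, had 22.9 (20.6 to 25.4) at 103.1 kb. Their counting intervals overlapped each other and that of the start of Irf8, 22.3 to 27.3. The first also overlaps a long noncoding RNA gene, Gm39170.

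Irf8 had 8 intervals, and 4 of the 7 away from its start reached a fold enrichment of 5, with a median over the 7 of 8.05. They formed a series along the gene. It began with 8.84 (7.42 to 10.5) in intron 1 at 3.32 kb and 8.05 (6.70 to 9.60) in intron 3 at 7.75 kb. It went on with 18.9 (16.8 to 21.2) in intron 5 at 11.1 kb, whose summit sequence is printed above, and ended with 11.4 (9.77 to 13.2) in the 3′ untranslated part of exon 9 at 19.1 kb. The intron 5 interval, chr8:121473405-121475595, lay below the start of Irf8 with no overlap of the counting intervals, and above the start of Irf4. Together the intervals covered 75.0% of the Irf8 region, compared with a median of 16.7% over protein-coding genes.

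Irf5 had 11 intervals, 5.92 per 10 kb, the densest of the 8 members. The strongest away from its start was 11.7 (10.0 to 13.5), chr6:29522430-29524690, whose summit lay 3.77 kb upstream, outside the 3 kb limit that the interval itself reached into. This interval overlaps the long noncoding RNA gene Gm26627. A weaker one of 5.37 (4.28 to 6.66) lay in coding exon 6 at 8.85 kb. The remaining 8 ran from 1.70 to 3.40.

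Irf3 and Irf9 each had 1 such interval. That of Irf3, 11.1 (9.46 to 12.9) in coding exon 6 at 3.29 kb, was 11361 bp wide and ran beyond the gene end into Scaf1, so it is shared between neighbours. That of Irf9 was 5.37 (4.28 to 6.66) in coding exon 7 at 3.71 kb.

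Irf1 had 3 intervals away from its start, at 2.10, 3.14 and 4.12, and the last of these had its summit beyond the gene end. Irf7 had 1, at 3.14, whose summit lay 2.90 kb upstream in an interval that overlaps Cdhr5. Irf4 had none, so its 1 interval covered 13.1% of its region. Covered shares in the other 7 members ran from 47.3% at Irf2 to 97.3% at Irf3.

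**Figure D3:**
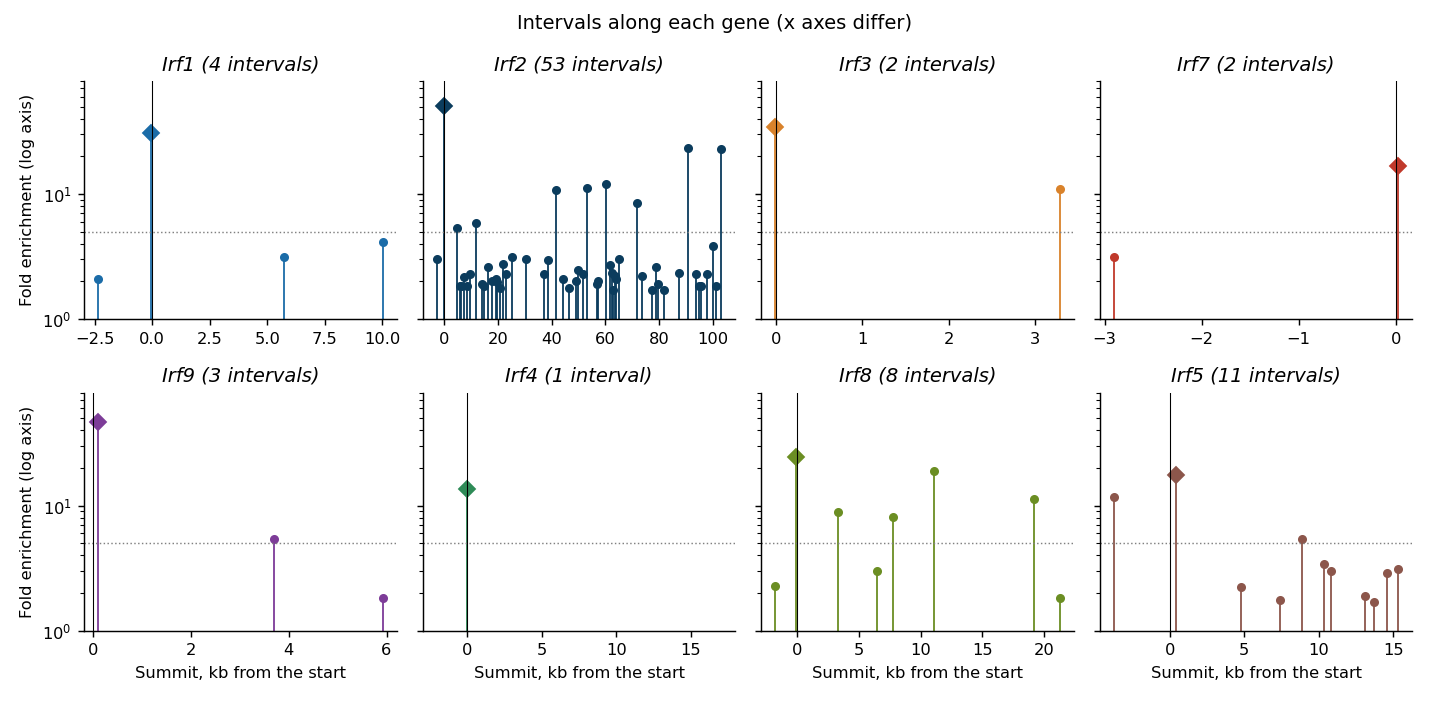
Fold enrichment (log axis) of the 84 intervals against the distance of their highest summit from the canonical start in kb (scales differ between genes), with diamonds for start intervals, circles for the others and a dotted line at 5. Irf2 and Irf8 carry strong intervals deep in the gene, up to 23.2 and 18.9, whereas Irf4 has its start interval alone.

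The members also differed in base composition. The ratio of observed to expected CpG over the 300-base promoter (250 bases before to 50 after the start) was 1.03 at Irf8, 0.912 at Irf1, 0.889 at Irf5, 0.733 at Irf3 and 0.717 at Irf2. It was 0.401 at Irf4, 0.392 at Irf9 and 0.143 at Irf7, below the median of 0.517 over all protein-coding promoters. Promoters rich in CpG are commonly accessible across tissues, and among the 9431 genes with a ratio of at least 0.6, 97.9% had a start interval and the median fold enrichment was 38.5. Among the 12326 genes under 0.6, 58.9% had one and the median was 3.14, with genes without an interval counted as 0.

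Placed within these classes, the order of the members changed. Irf9 was higher than 92.1% of the genes under 0.6, Irf7 than 71.1% and Irf4 than 68.1%. These shares count genes without a start interval as lower, and among the genes under 0.6 that had one they were 86.6% for Irf9, 51.0% for Irf7 and 45.9% for Irf4. The starts of Irf7 and Irf4 thus lay near the middle of the CpG-poor starts that were called.

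Of the CpG-rich members, Irf2 was higher than 68.7% of its class, Irf3 than 43.3%, Irf1 than 37.3%, Irf8 than 26.9% and Irf5 than 17.2%. Leaving out genes without an interval moved these shares little, to 68.0% at Irf2 and 15.4% at Irf5. The starts of Irf5 and Irf8 stood in the lower part of the CpG-rich genes on either count.

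**Figure D4:**
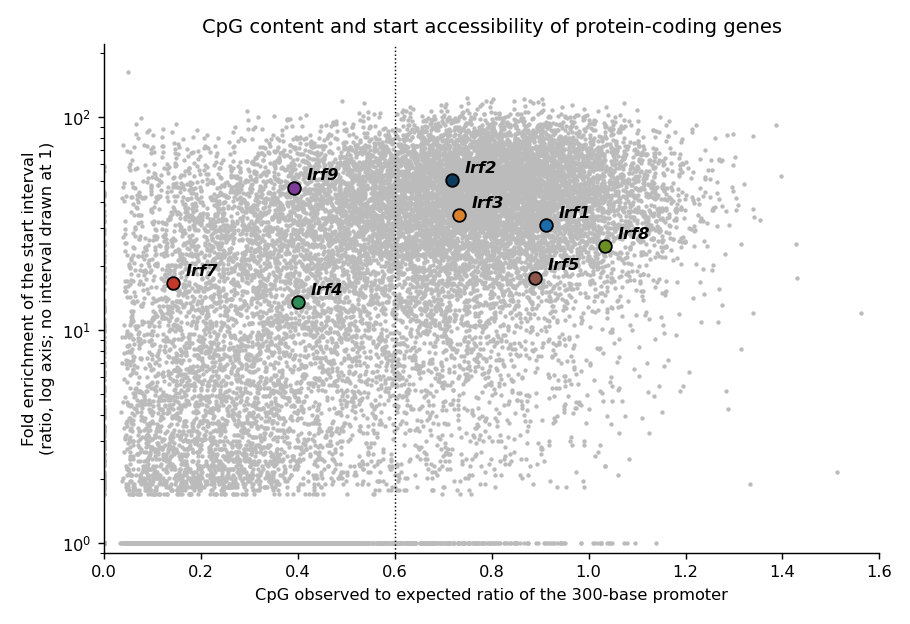
Fold enrichment of the start interval (log axis, no interval drawn at 1) against the ratio of observed to expected CpG in the 300-base promoter, with grey points for protein-coding genes, coloured points for the 8 Irf genes and a dotted line at 0.6. Irf9 stands high among CpG-poor genes at a ratio of 0.392, and Irf5 stands low among CpG-rich genes at 0.889.

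The promoters were searched on both strands for elements through which interferon and inflammatory signals are known to act. A match states only that the letters are there. An ISRE was present in 1 of 8 member promoters, that of Irf2 at bases -221 to -212, and in 3.84% of all protein-coding promoters. A composite ETS-IRF element was also present in that promoter alone, at -227 to -218, overlapping the ISRE by the 4 bases GAAA, against 2.97% of all promoters. A GAS lay in 3 of 8, Irf1 at -90, Irf2 at -204 and Irf8 at -171 and -153, against 8.82%. Among promoters with a start interval, the shares were 3.49% for the ISRE, 2.7% for the composite element and 7.65% for the GAS.

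The GAS of Irf1, TTCCCCGAA, lay 26 bases before the start summit of 31.0, and the upstream GAS of Irf8, TTCTCGGAA, lay under the same interval as its summit of 24.7. A κB element, the site of NF-κB, was found in 3 of 8 promoters, Irf1 at -13, Irf2 at 3 and Irf3 at -236. It was present in 4.87% of all promoters and in 5.36% of those with a start interval. The κB element of Irf1 reads GGGGAATCCC, the same on both strands. The site with its surroundings, chr11:53660818-53660847 on the plus strand with the κB element in capitals, is this one.
Irf1 κB site: agtccgggccGGGGAATCCCgctaagtgtt

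Among general promoter elements, the GC box (GGGCGG) was present in 6 of 8, all but Irf7 and Irf9, against 42.5% of all promoters. The letters TATAAA were present in 3 of 8, Irf4 at -19, Irf7 at 32 and Irf8 at -31, against 13.2%. That of Irf8 lay at about the distance usual for a TATA box. The ETS motif CCGGAAG was present in 0 of 8, against 10.3%. All 8 members had a start interval. Among all promoters with one, the shares were 53.9% for the GC box, 8.84% for TATAAA and 12.8% for CCGGAAG.

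In the 200 bases around the highest summit of each of the 84 intervals, a GAS was found in 9 and an ISRE in 1. Over all intervals, 5.92% and 1.84% of the same windows held them. A single ISRE match is too few to set the member share above or below its background. A composite element was found in 4 of the 84 windows and a κB element in 3, against 1.63% and 3.41%. Start summits held 4 of the 9 GAS matches, those of Irf1, Irf2, Irf8 and Irf9. The GAS of Irf9, TTCTAGGAA, lay 23 bases after the summit of 46.5 in exon 1 and outside the promoter window. The single ISRE was that of Irf5 3.77 kb upstream, 17 bases from the summit of 11.7, and the ISRE of Irf2 lay outside the window about its start summit.

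The remainder of the pathway was read from lists of genes that act before, with or after IRF proteins. Of 56 such genes, 43 had a start interval at a fold enrichment of at least 5, where 66.2% of protein-coding genes did. All 6 interferon receptor genes passed, with a median of 35.6, from Ifnlr1 at 10.5 to Ifnar1, a chain of the type I receptor, at 84.9. Of 6 interferon ligand genes, 0 passed. Ifnb1, a target of IRF3, was just under 5 at 4.98 (from its 1 interval), Ifnk was 2.75, and Ifng, Ifnl2, Ifnl3 and Ifne had no start interval.

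Among the sensors that activate IRF3 and IRF7, 6 of 8 passed with a median of 14.7. Ifih1, which encodes the RNA sensor MDA5, was highest at 42.2, Tlr9 was 3.86 and Tlr7 had no start interval. All 8 adaptor and kinase genes passed, with a median of 39.7, from Ikbke at 6.74 to Mavs, the mitochondrial adaptor, at 71.2. Genes that act with or after IRF4 and IRF8 in blood cells were lower, with 3 of 6 passing and a median of 6.09. They ran from Batf at 2.88 to Prdm1, a plasma cell regulator, at 25.7.

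Of 20 interferon-stimulated genes, which are targets of the IRF9 complex or of IRF1, 18 passed with a median of 21.9. The lowest was Mx1, an antiviral GTPase, at 3.27. The highest by the start interval was Isg15 at 46.9, but that interval is wide and the highest summit within 1 kb of the Isg15 start was 7.53. All 8 IRF start values were the same when the highest summit within 1 kb was used.

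**Figure D5:**
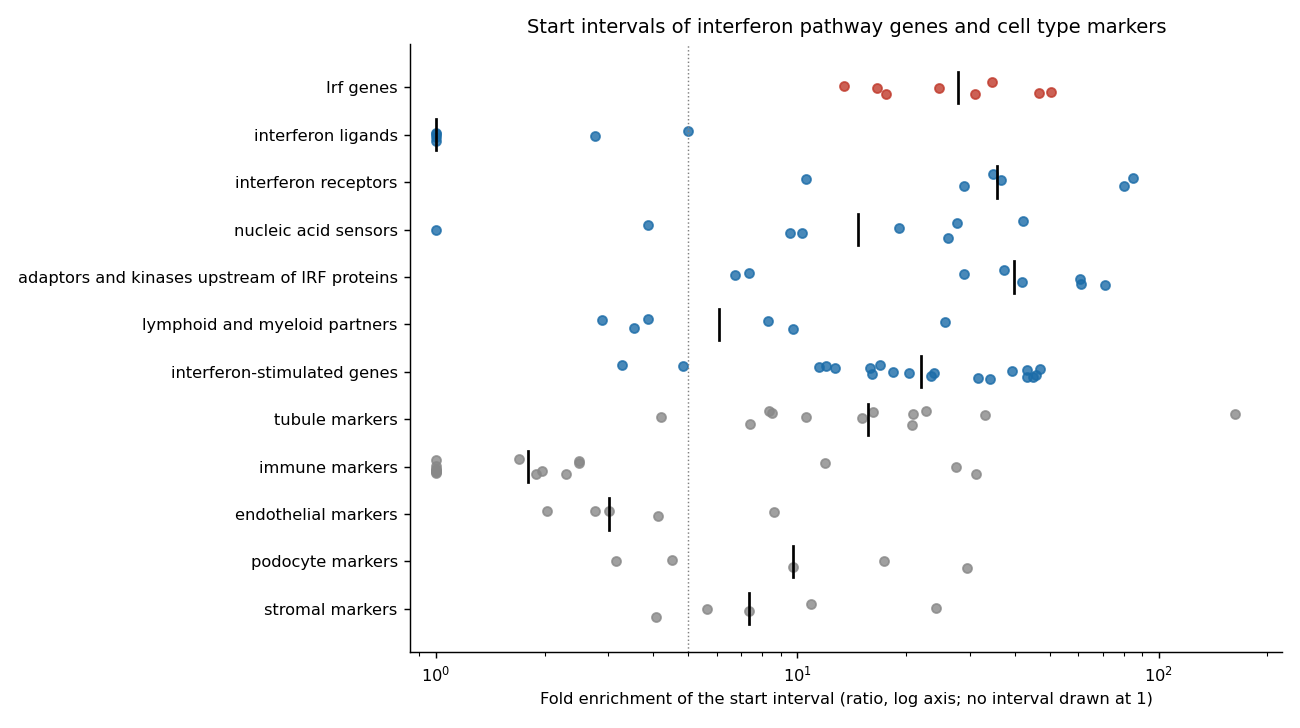
Fold enrichment of the start interval (log axis) of each gene of the lists, with genes without a start interval drawn at 1, a dotted line at 5 and a black bar at the median of each list. The 8 Irf genes (red) lie between 13.5 and 50.4, interferon ligand genes lie at or under 4.98, and most immune markers lie under 3.

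Markers were read to check the tissue. All 12 tubule markers had a start interval, from Aqp2 at 4.19 to Cdh16 at 162, and 11 passed a fold enrichment of 5. Their median was 15.7, below the 19.4 of all protein-coding genes when those without an interval counted as 0. Of all protein-coding genes, 66.2% passed. Cdh16 is the gene whose promoter drives Ksp-Cre, so reads from the transgene may be part of its value, which was not tested. The next highest tubule marker was Lrp2 at 33.1. By the highest summit within 1 kb of the start, 10 of 12 passed, since Slc12a3 went from 8.38 to 4.39. Of 16 immune markers, 3 passed, the median was 1.80, and the T cell genes Cd3e, Cd3d and Cd2 and the B cell gene Ms4a1 had no start interval, nor did the myeloid genes Itgam and Itgax. The pan-leukocyte gene Ptprc was at 1.90 and the macrophage gene Adgre1 at 2.49. The 3 that passed were Cd68 at 31.2, Csf1r at 27.6 and Flt3 at 11.9, and within 1 kb of the start the highest summits of Cd68 and Csf1r were 11.2 and 3.08.

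The starts of Irf4, Irf5 and Irf8 stood between 13.5 and 24.7 in a pool where 13 of 16 immune markers were under 5 or without a start interval. That count covers starts alone. Away from the start, Ptprc had 4 intervals at a fold enrichment of at least 5. Cd79a, Cd3e, Csf1r and Cd68 had 1 each, and the other immune markers had none. The CpG class of the markers was not compared with that of the members. Which cells carried the accessible starts of Irf4, Irf5 and Irf8 was not tested. In whole cortex a few cells with a very open site and many cells with a weakly open one cannot be told apart. Endothelial markers passed in 1 of 5 (Kdr at 8.64, with Pecam1 lowest at 2.03), podocyte markers in 3 of 5 (from Nphs1 at 3.14 to Synpo at 29.5) and stromal markers in 4 of 5 (from Acta2 at 4.06 to Pdgfra at 24.2). The count of each of these 3 lists was the same by the highest summit within 1 kb. However, Pdgfra was then 7.92 and Col1a1 was the highest stromal marker at 10.9. Lists of 5 genes are too short to set these counts against the 66.2% of all protein-coding genes.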

How the data were processed

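ATAC-seq libraries of 3 WT and 3 Acly cKO kidneys were grouped by their genotype labels. By the study's methods and processing notes, the authors cleaned reads with fastp, mapped them to mm39 using Bowtie2 2.3.4.3, discarded duplicates and multiply mapped reads, called peaks using MACS3 3.0.0, by the peak names over pooled libraries, and used bedtools 2.29.1 to take out blacklisted stretches and unplaced sequences. The deposited peak list gives for each of 749750 summits a fold enrichment, which is a linear ratio computed by the authors, and the -log10 p and -log10 q written by the authors' caller. The shift of the reads is printed in the methods without a minus sign, so extended reads may not be centred on the cut sites and the distances of summits from starts carry that uncertainty. The depth of single libraries is unknown.

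Intervals, starts, base composition and motif matches were computed on GRCm39 with GENCODE M39 in Python 3.11.15 with numpy 2.4.6 and pandas 2.3.3. Start intervals lay within 1 kb of the canonical start. Extended reads were recovered from the step of 0.0655 between fold enrichments, as 1 over the background plus 1. All 891 distinct values under 60 were whole multiples within 0.05 of a step, and the -log10 p of all 1549 distinct values was recomputed from these counts to within 0.000461%. The code was tested on simulated data, where 350 of 350 planted motifs were found. No test was run, because nothing is replicated. The members and lists were chosen with earlier results of these data known. Genes named were the members, a gene that shares a member's start interval, and of each list the highest, the lowest and those without a start interval; other genes were named after their values were seen. Some genes of the lists entered the counts and are not reported here. Other regions, thresholds and windows were tried as alternatives. The deposited summits before filtering were not used.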

Additional observations from a re-analysis of the deposited data

How the results depend on the processing

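No paired analysis was possible because a single call over the pool gave every value and none belongs to 1 library. For that reason no replicate could be left out either. The 84 intervals at the Irf genes became 43 at a q under 1e-05, 24 at a fold enrichment of at least 5, 127 with 10 kb on either side of the genes and 340 when summits were counted, sets that are larger or smaller by construction. They were 68 at a q under 0.01, 81 with at least 50% of the interval inside the region and 79 without the upstream 3 kb. All 8 start intervals passed in each of the 5 alternatives, including a fold enrichment of at least 10. Of 24 start values of single members under other start definitions, 0 moved by over 1.5 times. The 16 intervals away from starts became 28 at a fold enrichment of at least 3 and 9 at 10, as the thresholds are built to give, and were 24 with 10 kb on either side. Members with an ISRE or GAS at the start numbered 3, and 4 around the start summits, where Irf9 was added. Of the 56 pathway genes, 43 passed at 5 and 38 at 10. Of 56 interval counts at single members, 22 moved by over 1.5 times. In alternatives chosen after seeing the data, counting only protein-coding genes with a start interval lowered the share below Irf4 from 44.2% to 26.5%, below Irf5 from 48.2% to 31.7% and below Irf7 from 47.3% to 30.5%, and no count of a marker list moved by over 1.5 times by the highest summit within 1 kb. Library depth is unknown, and variation between kidneys is not part of the counting intervals.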
